A study of Homo sapiens with 6 samples.

Results

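The mRNAs described here encode 8 replacement histones, also called histone variants: H1FX, H2AFZ, H2AFV, H2AFX, H2AFY, H2AFJ, H3F3A and H3F3B. They were chosen by name, as the rows carrying these symbols in each of the 2 deposited tables, and make up 8 of 58302 genes in the tables, of which 22607 had a read in any library. All 8 had reads. The study sequenced RNA pulled down with poly(A)-binding proteins of the cytoplasm (RNA immunoprecipitation and sequencing, RIP-seq) from HepG2 cells, an established human line of hepatocellular carcinoma. It compared 3 groups of 2 libraries each. The PABPC1 RIP used an antibody against PABPC1 on cells that overexpressed PABPC1, the PABPC4 RIP used an antibody against PABPC4 on cells that overexpressed PABPC4, and the rabbit IgG control was made from each of these cell populations in 1 library. No library was made from cells without overexpression among those analysed here, and the vector and promoter of the overexpression are not given in the sources used here. The labels do not say that replicates came from separate cultures, so the spread between the 2 libraries of a RIP group may be technical. The 2 IgG libraries differ in cell population, so their spread mixes population with library. Between the RIPs the antibody and the overexpressed protein change together, so their parts cannot be told apart.

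Most histone proteins are made in S phase from intronless genes whose mRNAs end in a conserved stem-loop in place of a poly(A) tail. Replacement histones are made through the cell cycle and in non-dividing cells from mRNAs that carry a poly(A) tail, the structure that PABPC1 and PABPC4 bind. H2AFX is a mixed case, because its transcripts can end either in the stem-loop or in a poly(A) tail. PABPC1 is the abundant cytoplasmic poly(A)-binding protein and acts in translation and mRNA stability, and PABPC4 is its less abundant relative.

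Reads per library were recovered as whole numbers from the deposited folds and p-values, and the library with the larger total in each group is called A. Libraries A and B held 289217 and 277552 reads in the PABPC1 group, 850190 and 841327 in the PABPC4 group, and 133030 and 94235 in the IgG group. The share of reads outside the genes split to libraries, most of it mitochondrial rRNA, was 35.5% to 41.0% in PABPC1, 15.8% to 16.8% in PABPC4 and 54.4% to 56.5% in IgG libraries. This share enters the denominator of every level given below per library total. The 15 hepatocyte markers summed to 4736 to 4743 RPM (reads per 1000000 library reads) in IgG, 7406 to 8236 in PABPC1 and 10108 to 10766 in PABPC4, with all 15 read in some library and TTR at 0 in both IgG libraries. The sum of the 11 blood cell markers, all read in some library, ran the other way, at 3811 to 3948 in IgG, 1369 to 1481 in PABPC1 and 613 to 770 in PABPC4, with the globin HBD at 0 in 4 of the 6 libraries. The globin HBB held 503 of their 879 IgG reads. Of the 10 blood cell markers with a ratio to IgG, 1 lay above 1 in each RIP. The 9 fibroblast and endothelial markers (8 read) summed to 138 to 203 RPM in IgG, 57.6 to 72.6 in PABPC1 and 23.8 to 36.5 in PABPC4, with VWF at 0 throughout. The 7 lymphocyte markers (5 read) summed to 2.35 to 15.0 RPM, with CD27 and CD79A at 0 in all 6 libraries. The part of non-hepatocyte RNA and of mitochondrial rRNA in the ratios below was not tested.

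None of the 8 mRNAs was called higher or lower than IgG in either of the authors' deposited tables, whose test is a chi-square test on summed reads that leaves out the spread between libraries. Every deposited adjusted p of these genes was 0.291 or more, and by unadjusted p under 0.05 the count was 0 of 8 in PABPC1 and 1 of 8 in PABPC4 (H1FX). Over all genes 7.03% and 13.5% had such an unadjusted p. Of all genes with a deposited p, 1.34% were called higher in PABPC1 (235 of 17565) and 0.194% lower, and in PABPC4 5.54% were called higher (1188 of 21455) and 0.9% lower. Among the 2158 genes with at least 10 IgG reads, of which H2AFV, H2AFY and H3F3B are 3, the shares were 9.18% higher and 1.34% lower in PABPC1, and 39.1% higher and 2.92% lower in PABPC4. Together the 8 genes gave 212 reads in PABPC1, 893 in PABPC4 and 85 in IgG. By library, in RPM, these sums were 349 and 399.9, 528.1 and 527.7, and 398 and 339.6, so PABPC4 lay above the others and PABPC1 overlapped IgG. The summed reads stood at 1.00 times IgG in PABPC1 (exact 95% interval 0.774 to 1.30) and 1.41 times IgG in PABPC4 (1.13 to 1.78). Scaled to totals of nuclear-encoded genes they stood at 0.713 (0.552 to 0.928) and 0.718 (0.575 to 0.908), so the direction in PABPC4 turned with the scaling. The intervals here and below come from summed reads and cover counting error only. On that scaling the median ratio to IgG of the 2158 genes was 0.922 in PABPC1 and 0.912 in PABPC4, against 1.29 and 1.79 on library totals.

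**Figure D1:**
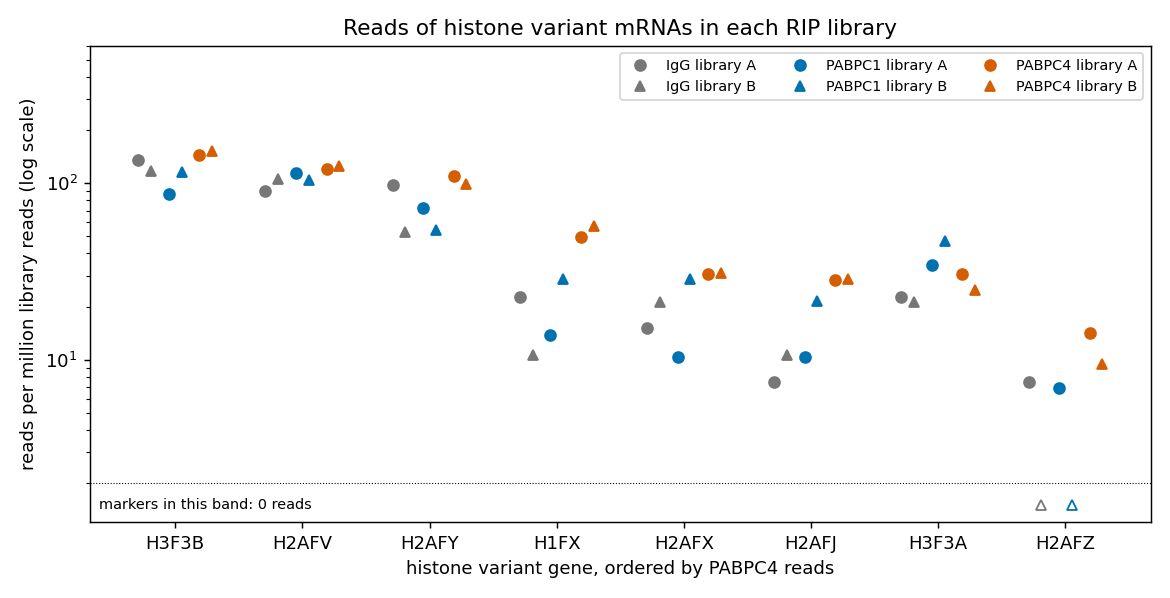
Levels in RPM (reads per 1000000 library reads, log scale) of 8 histone variant genes in each of the 6 RIP libraries; circles are library A and triangles library B, and open markers in the lowest band are libraries with 0 reads. H3F3B, H2AFV and H2AFY lie between 53.1 and 152.1 RPM in all 6 libraries, and the other 5 genes reach at most 57.1 RPM.

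H1FX (ENSG00000184897, now H1-10; chr3:129314771-129316286) encodes a linker histone, which binds the DNA between nucleosomes; positions here and below are those of RefSeq on GRCh38.p14. It had 4 and 8 reads in PABPC1, 42 and 48 in PABPC4, and 3 and 1 in IgG. In RPM this was 13.8 and 28.8, 49.4 and 57.1, and 22.6 and 10.6. The PABPC4 libraries lay above all others, while PABPC1 and IgG overlapped. The authors' deposited table gave 1.29-fold in PABPC1 with an adjusted p of 1, and 3.21-fold in PABPC4 with an adjusted p of 0.291, the smallest adjusted p of the 8 genes. From summed reads the PABPC4 ratio was 3.02 (1.14 to 11.3), so counting error in 4 IgG reads left a wide range. Scaled to nuclear-encoded totals it was 1.54 (0.580 to 5.77). On library totals it was 5.01 without IgG library A, which leaves 1 IgG read, and 2.36 without IgG library B. An antisense gene beside it, H1FX-AS1, had 1 PABPC1, 4 PABPC4 and 1 IgG reads. The sources used here do not state whether counting used strand, so reads of the pair cannot be told apart.

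The H2A.Z histones mark the nucleosomes around active promoters and are encoded by H2AFZ and H2AFV. H2AFV (ENSG00000105968, now H2AZ2; chr7:44826889-44848126) had 33 and 29 reads in PABPC1, 103 and 106 in PABPC4, and 12 and 10 in IgG. These are levels of 114.1 and 104.5, 121.1 and 126.0, and 90.2 and 106.1 RPM. The PABPC1 and IgG libraries overlapped, and the PABPC4 libraries lay just above. Its ratios of 1.13 (0.685 to 1.93) in PABPC1 and 1.28 (0.821 to 2.08) in PABPC4 had intervals that include 1.

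H2AFZ (ENSG00000164032, now H2AZ1; chr4:99948088-99950275) had 2 and 0 reads in PABPC1, 12 and 8 in PABPC4, and 1 and 0 in IgG. At this depth no ratio to IgG was informative, with 0.802 (0.0417 to 47.3) in PABPC1 and 2.69 (0.430 to 111.4) in PABPC4. H2AFV supplied most of the reads of the pair in every group: 62 of 64 in PABPC1, 209 of 229 in PABPC4 and 22 of 23 in IgG. These shares were 96.9% (exact interval 89.2% to 99.6%), 91.3% (86.8% to 94.6%) and 95.7% (78.1% to 99.9%), whose intervals overlap. Per kilobase of exon the pooled H2AFV level was 26.02 RPM in PABPC4, against 5.13 for H2AFZ. The 5 pseudogene copies of H2AFZ in the tables held 0 PABPC1, 5 PABPC4 and 1 IgG reads, and reads that a copy shares with its parent could be missing from either.

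H2AFX (ENSG00000188486, now H2AX; chr11:119093874-119095465) encodes the variant phosphorylated next to DNA double-strand breaks. It had 3 and 8 reads in PABPC1, 26 and 26 in PABPC4, and 2 and 2 in IgG. The levels were 10.4 and 28.8, 30.6 and 30.9, and 15.0 and 21.2 RPM. PABPC1 libraries spanned the IgG range, and PABPC4 libraries lay above it. The ratios were 1.10 (0.327 to 4.75) and 1.75 (0.643 to 6.65), and each deposited adjusted p in the authors' deposited tables was 1.

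H2AFJ (ENSG00000246705, now H2AJ; chr12:14774405-14778002) encodes an H2A variant known to accumulate in senescent cells. It had 3 and 6 reads in PABPC1, 24 and 24 in PABPC4, and 1 and 1 in IgG, or 10.4 and 21.6, 28.2 and 28.5, and 7.52 and 10.6 RPM. PABPC4 libraries again lay above IgG, and PABPC1 library A fell between the IgG libraries. With 2 IgG reads in all, the ratios of 1.80 (0.373 to 17.2) and 3.22 (0.845 to 27.4) were not distinguishable from 1. The authors' deposited table gave H2AFJ 3.12-fold in PABPC4 with an adjusted p of 0.680.

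H2AFY (ENSG00000113648, now MACROH2A1; chr5:135334381-135399887) encodes macroH2A1, a variant with a large extra domain that is found on silent chromatin. It had 21 and 15 reads in PABPC1, 93 and 83 in PABPC4, and 13 and 5 in IgG. In RPM it stood at 72.6 and 54.0, 109.4 and 98.7, and 97.7 and 53.1. The IgG libraries differed by 1.84 times, and the lower PABPC4 library lay only just above the higher IgG library. The ratio was 0.802 (0.444 to 1.502) in PABPC1 and 1.31 (0.807 to 2.27) in PABPC4, with intervals on both sides of 1.

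H3.3, the replacement H3 laid down outside replication, is encoded by H3F3A and H3F3B, which specify the same protein from different mRNAs. H3F3B (ENSG00000132475, now H3-3B; chr17:75776434-75779779) had 25 and 32 reads in PABPC1, 123 and 128 in PABPC4, and 18 and 11 in IgG. As RPM the values were 86.4 and 115.3, 144.7 and 152.1, and 135.3 and 116.7. Both PABPC1 libraries lay below both IgG libraries, the only member with that pattern, and both PABPC4 libraries lay above. The difference was within counting error, with ratios of 0.788 (0.496 to 1.28) and 1.16 (0.790 to 1.77). On totals of nuclear-encoded genes the ratios were 0.562 (0.353 to 0.911) in PABPC1 and 0.592 (0.402 to 0.902) in PABPC4, so the direction in PABPC4 turned. Among the 2158 genes with at least 10 IgG reads, 12.5% had a lower PABPC1 ratio than H3F3B and 17.5% a lower PABPC4 ratio.

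H3F3A (ENSG00000163041, now H3-3A; chr1:226061831-226072019) had 10 and 13 reads in PABPC1, 26 and 21 in PABPC4, and 3 and 2 in IgG. Its levels were 34.6 and 46.8, 30.6 and 25.0, and 22.6 and 21.2 RPM. On library totals it was the only member whose PABPC1 libraries both lay above both PABPC4 libraries. On totals of nuclear-encoded genes H2AFV also had that pattern. Its ratios to IgG were 1.84 (0.686 to 6.21) and 1.26 (0.505 to 4.07). H3F3B supplied 57 of 80 H3.3 reads in PABPC1, or 71.3% (60.0% to 80.8%), and 251 of 298 in PABPC4, or 84.2% (79.6% to 88.2%). By library the share was 71.4% and 71.1% in PABPC1 and 82.6% and 85.9% in PABPC4, without overlap, while the 34 IgG reads gave 85.3% (68.9% to 95.05%). An exact permutation test of 2 libraries against 2 cannot give a two-sided p below 0.333. Pseudogene copies of H3F3A held 5 PABPC1, 11 PABPC4 and 1 IgG reads, and those of H3F3B held 0 in every group, so the division of reads between H3F3A and its copies is uncertain.

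Across the group, 1 of 8 genes had both PABPC1 libraries above both IgG libraries (H3F3A), 1 had both below (H3F3B) and 6 overlapped. Of all genes with at least 20 reads in these groups, 52.7% had both PABPC1 libraries above and 5.7% both below. Only 4 of the 8 genes reach 20 reads there, and of these 1 lay above, 1 below and 2 overlapped. In PABPC4 all 8 genes lay above IgG on library totals, and 69.3% of all such genes lay above and 3.29% below. On totals of nuclear-encoded genes the ratio to IgG of H2AFV, H2AFX, H2AFY, H3F3A and H3F3B was below 1 in PABPC4. The median ratio of the 8 genes was 1.12 in PABPC1 and 1.53 in PABPC4 on library totals, beside 1.29 and 1.79 for the 2158 genes. On totals of nuclear-encoded genes it was 0.795 and 0.779, beside 0.922 and 0.912. The 3 genes that reach 10 IgG reads like those 2158 had medians of 0.802 and 1.28 on library totals, and of 0.571 and 0.650 on totals of nuclear-encoded genes.

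**Figure D2:**
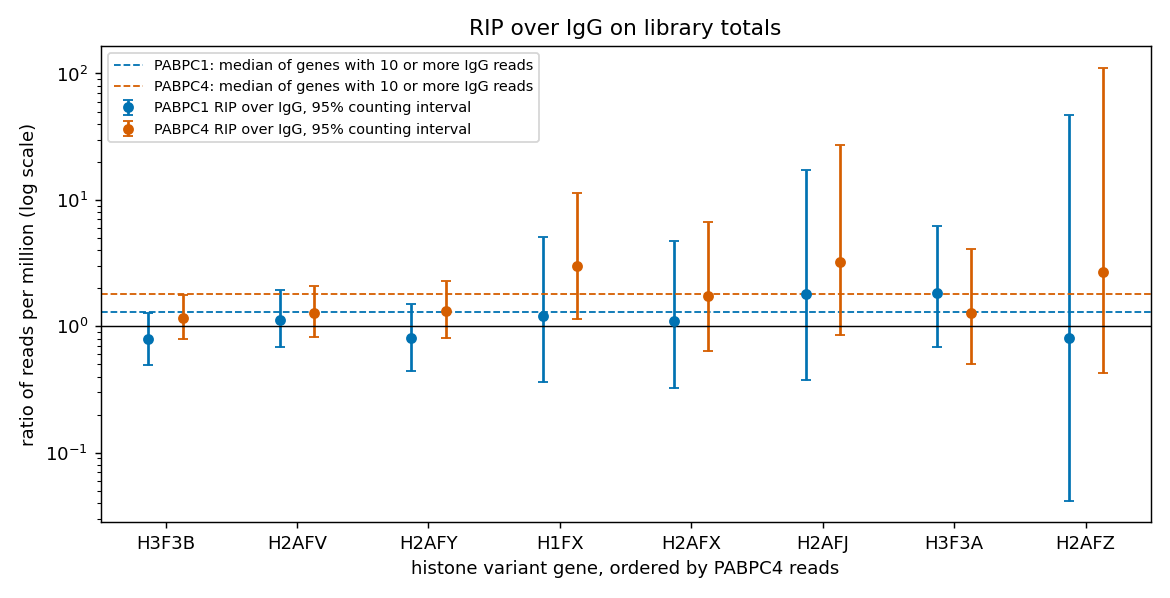
Ratio of RPM in each RIP to IgG (log scale) for 8 histone variant genes, on library totals; points are ratios of summed reads, bars are exact 95% counting intervals, and dashed lines are the medians of 1.29 (PABPC1) and 1.79 (PABPC4) over 2158 genes. Of the 16 intervals only that of H1FX in PABPC4, 1.14 to 11.3, lies wholly above 1, and on totals of nuclear-encoded genes it is 0.580 to 5.77.

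Depth limited what excess could be called. H3F3B, the deepest in IgG with 29 reads, needed a ratio of 1.99 in PABPC1 and 1.78 in PABPC4 for the deposited test to call it. H2AFV needed 2.19 and 1.93, and H2AFY 2.36 and 2.07. H1FX and H2AFX, each with 4 IgG reads, needed 5.21 and 4.23. H3F3A needed 4.49 and 3.71, H2AFJ 8.42 and 6.78, and H2AFZ 15.2 and 11.8. A measured 2-fold ratio would therefore have been called for H3F3B alone in PABPC1, and for H3F3B and H2AFV in PABPC4. For the other genes such a measured ratio would not have been called at these IgG reads. Counting error can place the measured ratio of a true 2-fold excess above or below 2. How often such an excess would be called was not worked out. The ratios given are those for a higher call, and those for a lower call were not worked out.

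**Figure D3:**
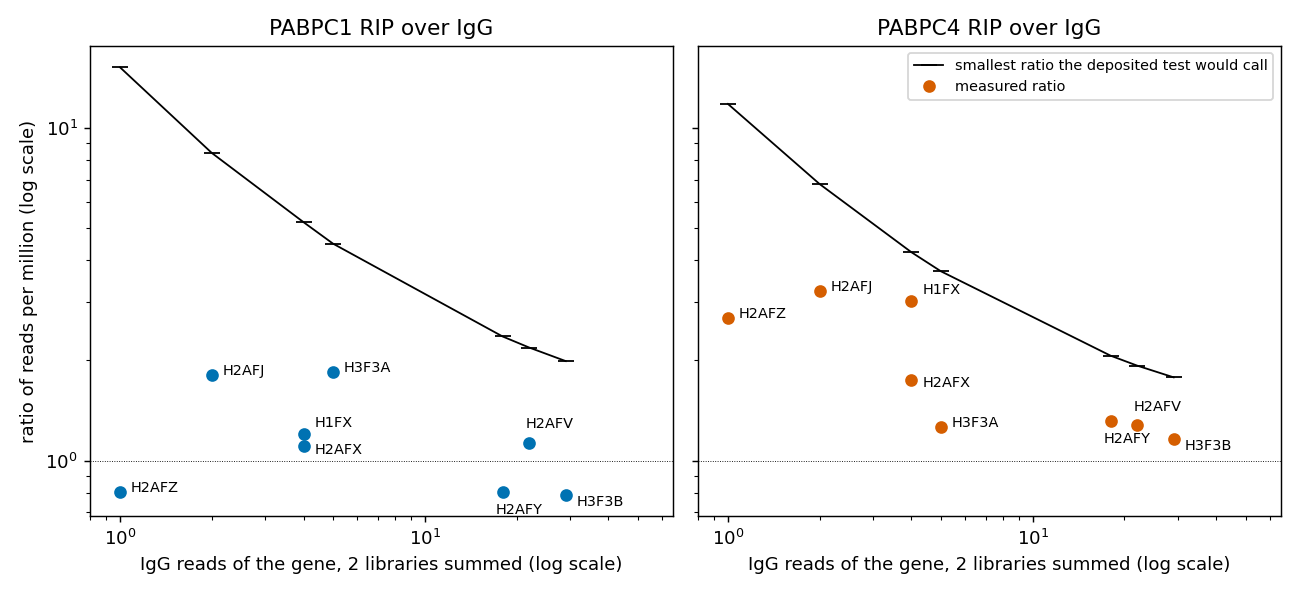
Measured ratio to IgG on library totals (points, log scale) against summed IgG reads of the gene (log scale) for 8 histone variant genes, in PABPC1 (left) and PABPC4 (right); the black line joins the smallest ratio that the deposited chi-square test would call at each gene's IgG reads. All points lie below the line, which runs from 15.2 (PABPC1) and 11.8 (PABPC4) at 1 IgG read to 1.99 and 1.78 at 29.

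Levels can be compared between genes only per length, here as RPKM (RPM per kilobase of exon). In PABPC4 the order was H1FX (35.3), H2AFV (26.02), H3F3B (24.2), H2AFX (19.0), H3F3A (8.83), H2AFJ (8.46), H2AFY (5.87) and H2AFZ (5.13). In PABPC1 it was H2AFV (23.0), H3F3B (16.4), H1FX (14.0), H3F3A (12.9), H2AFX (12.02), H2AFJ (4.73), H2AFY (3.58) and H2AFZ (1.53). In IgG it was H3F3B (20.8), H2AFV (20.4), H1FX (11.7), H2AFX (10.9), H3F3A (6.99), H2AFY (4.47), H2AFJ (2.62) and H2AFZ (1.91). Neighbours in the order had overlapping counting intervals in all groups, except that H2AFX was above H3F3A in PABPC4. H2AFV ranked 891 of 6258 genes with at least 10 reads in PABPC1, and H1FX ranked 822 of 10786 in PABPC4. The exon length behind these values, implied by the deposited folds, was 17730 bases for H2AFY and 4749 for H2AFV. For H3F3B it was 6134 bases, longer than the whole RefSeq span of 3346 bases. H2AFZ (2303 against 2188) and H2AFX (1614 against 1592) also exceeded their spans. The order of levels depends on these lengths, and a shorter length for H3F3B would raise its level.

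The RIPs were compared directly with limma on the recovered reads of 7988 genes, with 3 residual degrees of freedom and libraries scaled so that the typical gene is unchanged (median-of-ratios). The median difference over all genes was -0.03 on the log2 scale. Of these genes 2.19% were called higher in PABPC4 than in PABPC1 (175) and 2.28% lower (182), at an adjusted p under 0.05. None of the 7 histone variant genes that could be fitted was called, and 1 of 7 (H3F3A) had an unadjusted limma p under 0.05, beside 16.4% of all genes tested. On library totals the median difference over all genes was 0.446.

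H3F3A had the lowest estimate, a log2 difference of -1.05 (SE 0.36, 95% interval -1.78 to -0.32, limma adjusted p = 0.0978), and was not called. It passed with the RIP groups alone (-1.07, limma adjusted p = 0.0351) and without IgG library B (-1.06, limma adjusted p = 0.0491). The adjusted p was 0.646 without PABPC1 library A, 0.763 without PABPC1 library B and 0.836 with limma trend. On library totals its estimate was -0.57 (95% interval -1.32 to 0.175, limma adjusted p = 0.312). H1FX had the highest estimate, 0.81 (SE 0.43, 95% interval -0.062 to 1.69, limma adjusted p = 0.352). On library totals H1FX was called higher in PABPC4 at 1.31 (SE 0.44, limma adjusted p = 0.0379). H2AFV stood at -0.31 (SE 0.22; 0.16 on library totals), H2AFX at 0.22 (SE 0.48), H2AFY at 0.23 (SE 0.28), H2AFJ at 0.30 (SE 0.49) and H3F3B at 0.08 (SE 0.22), with limma adjusted p-values from 0.534 to 0.914. Those 5 estimates, and that of H1FX under median-of-ratios, lay within 2 standard errors of 0. H2AFZ, with at most 12 reads in a library, did not pass the filter of 10 reads in 2 libraries and was not tested. On RPM, which uses library totals, 7 of 8 genes had both PABPC4 libraries above both PABPC1 libraries and 1 (H3F3A) had both below. Of all genes with at least 20 reads in these groups, 52.1% and 7% did so. On totals of nuclear-encoded genes only H1FX had both PABPC4 libraries above. H2AFV and H3F3A had both below, and H2AFZ, H2AFX, H2AFY, H2AFJ and H3F3B overlapped. Summed reads of the 8 genes in PABPC4 stood at 1.41 times PABPC1 on library totals (exact 95% interval 1.21 to 1.65). On totals of nuclear-encoded genes they stood at 1.008 times PABPC1 (0.867 to 1.18).

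**Figure D4:**
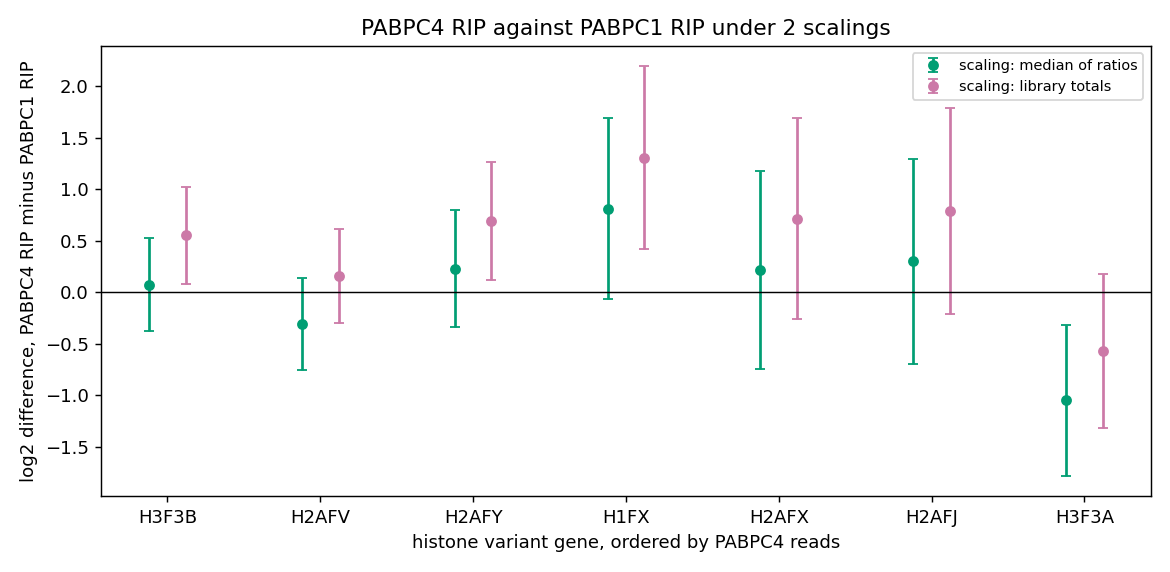
Log2 difference between PABPC4 RIP and PABPC1 RIP for the 7 histone variant genes tested, from limma under median-of-ratios scaling and under library totals; points are estimates and bars are 95% intervals. The H3F3A estimates are -1.05 and -0.57, and those of H1FX are 0.81 and 1.31. The interval of H3F3A on library totals, -1.32 to 0.175, includes 0. So does that of H1FX under median-of-ratios, -0.062 to 1.69.

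Next to the variants, 40 genes whose proteins deposit, exchange or carry histones were counted. The authors' deposited tables called 4 of these 40 higher in PABPC1 and 15 of 40 in PABPC4, and 0 lower in either. Over all genes with a deposited p, 1.34% and 5.54% were called higher. Among the 2158 genes with at least 10 IgG reads the shares were 9.18% and 39.1%, near these counts, but not all 40 genes reach that depth. The median ratio to IgG of the 40 was 1.48 in PABPC1 and 2.18 in PABPC4, over the 34 and 35 genes with reads on each side. Beside this, the 2158 genes had 1.29 and 1.79. On totals of nuclear-encoded genes the medians of these 34 and 35 genes were 1.05 and 1.11. NPM1, a nucleolar histone chaperone, had 540 PABPC1, 2158 PABPC4 and 111 IgG reads. The authors' deposited tables gave NPM1 1.96-fold in PABPC1 (adjusted p 5.16e-08) and 2.62-fold in PABPC4 (adjusted p 6.39e-22). For NAP1L1, which carries H2A and H2B, the authors' deposited tables gave 1.96-fold (adjusted p 0.000439) and 3.29-fold (adjusted p 1.96e-19).

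SUPT16H, a subunit of the FACT complex that opens nucleosomes for transcription, had 161 PABPC1, 1174 PABPC4 and 31 IgG reads. The authors' deposited tables gave it 2.04-fold (adjusted p 0.0171) and 4.96-fold (adjusted p 1.30e-20). SUPT16H was also higher in PABPC4 than in PABPC1 in the direct comparison, at a log2 difference of 0.81 (SE 0.14, limma adjusted p = 0.000176). In all, 3 of the 32 chaperone genes tested there were called higher and 0 lower, beside the 2.19% and 2.28% of all genes. Calls were more common at depth: of 2137 genes tested with at least 10 IgG reads, 145 were called higher and 115 lower.

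Of 10 genes that phosphorylate or read H2AX at damaged DNA, 0 were called in PABPC1 and 3 were called higher in PABPC4. In PABPC1 and PABPC4, 1.34% and 5.54% of all genes were called higher, and 9.18% and 39.1% of the 2158 genes. The median ratios of the 10 genes were 1.87 and 2.32 on library totals and 1.33 and 1.18 on totals of nuclear-encoded genes. BAZ1B, a kinase that phosphorylates a tyrosine of H2AX, had a PABPC4 fold of 4.32 with an adjusted p of 1.61e-13 in the authors' deposited table. BAZ1B was higher in PABPC4 than in PABPC1, at a log2 difference of 0.73 (limma adjusted p = 0.00289), the only call of the 10 genes in that comparison. For PABPC4 the authors' deposited table gave MDC1, which binds phosphorylated H2AX, 3.61-fold with an adjusted p of 9.05e-06. The ubiquitin ligase RNF168 had 2.72-fold with an adjusted p of 0.00874 in the authors' deposited table. Among 7 genes for stem-loop histone mRNA processing, 0 were called in PABPC1 and 1 in PABPC4. Beside this, 1.34% and 5.54% of all genes were called higher, and 9.18% and 39.1% of the 2158 genes. The 7 genes held 29 IgG reads together, so not all reach the depth of the 2158 genes. Over 6 of the 7 genes the median ratios were 1.30 and 1.99 on library totals, but 0.924 and 1.011 on totals of nuclear-encoded genes. The called gene was CASP8AP2, with a fold of 2.64 and an adjusted p of 0.0434 from the authors' deposited table.

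Of 10 other histone variant genes, 3 had a read and 0 were called in PABPC1 or PABPC4. Beside this, 1.34% and 5.54% of all genes were called higher and 0.194% and 0.9% lower. The 3 genes held 12 IgG reads together. On library totals 0 of the 3 ratios to IgG lay above 1 in PABPC1 and 1 in PABPC4, with medians of 0.802 and 0.806. CENPA, the centromeric H3, had 8 PABPC1, 39 PABPC4 and 7 IgG reads. H2AFY2, the second macroH2A gene, had 9, 50 and 4 reads, and H3F3C, an H3.3-like gene, had 2, 6 and 1.

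Of 75 replication-dependent histone genes, whose mRNAs are known for ending in a stem-loop, 55 had a read. Of those with a deposited p, 0 of 45 were called in PABPC1, while 2 of 54 were called higher and 0 lower in PABPC4, beside 1.34% and 5.54% of all genes called higher. The authors' deposited table gave these linker histone genes, HIST1H1E and HIST1H1C, folds of 1.73 (adjusted p 2.16e-05) and 2.06 (adjusted p 0.000555). The median ratio of these genes was 0.802 in PABPC1 (34 genes) and 1.43 in PABPC4 (36 genes), beside 1.12 and 1.53 for the 8 variants. On totals of nuclear-encoded genes it was 0.571 and 0.729, beside 0.795 and 0.779. Summed reads on library totals gave the other order, at 1.11 and 1.66 times IgG for the stem-loop genes and 1.00 and 1.41 for the 8 variants. Of the 262 IgG reads of the stem-loop genes, HIST1H1E held 87 and HIST1H1C 35, so many of the others had few. No test of the difference between tailed and stem-loop histone mRNAs was made.

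The 3 genes whose pattern over the 6 libraries lay nearest to that of the summed reads of the 8 variants were ASPSCR1, RALY and MAN1A1, at Euclidean distances of 0.159, 0.203 and 0.212 between centred log2 values. They were picked from 623 genes with at least 10 reads in every library. Their ratios to IgG on library totals were 1.04, 0.962 and 1.015 in PABPC1 and 1.43, 1.39 and 1.499 in PABPC4.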

How the data were processed

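Per the labels' protocols, RNA from antibody-coated beads was made into libraries with a random-primed SMART-seq type kit. STAR 2.7.10a, Bowtie2 2.4.1, featureCounts 2.0.1 and the build GRCh38 are named, without roles, per the submitters' processing notes. The authors deposited, per the file headers, a linear fold ratio of RIP over IgG, a p-value and a Benjamini-Hochberg adjusted p-value for 58302 genes in each of 2 tables. The tables held 0 columns of single libraries, so the deposited calls are described for the comparisons with IgG, and only the direct comparison of the RIPs rests on a fit to recovered reads.

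From the values, the deposited p is that of a Yates-corrected chi-square test comparing a gene's summed reads with the rest of each total. The deposited fold equals the mean RPKM of the RIP libraries over the mean RPKM of the IgG libraries plus 0.005. Both tables used the same 2 IgG libraries, so the comparisons with IgG share their control. Whole reads were solved from these relations: of 22607 genes with a read, 22120 were split to the 6 libraries, 485 were summed only, and the mitochondrial rRNAs MT-RNR1 and MT-RNR2 were not solved. The gene length implied by each fold was a whole number of bases within 5.89e-06. In simulated tables with known reads, 20144 of 20144 split genes were right. Which library is which replicate, and which IgG library came from which cells, was not recovered.

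Calls against IgG are those of the deposited adjusted p under 0.05. Ratios from summed reads carry exact (conditional binomial) intervals, and shares exact Clopper-Pearson intervals. PABPC4 and PABPC1 RIP were compared with limma 3.58.1 (voom, R 4.3.3) on genes that reached 10 reads in 2 or more libraries, over all 3 groups, with 33.7 prior degrees of freedom. On simulated reads for 7332 genes this test called 23 of 100 genes changed 2-fold, 83 of 100 changed 4-fold and 9 unchanged genes. The alternatives were totals of nuclear-encoded genes, median-of-ratios, TMM or library totals as scaling, Fisher's exact test, no filter, limma trend, the RIP groups alone, and each library left out. The members and lists were chosen with earlier results of these data known. Of the 9 genes the choice by name gives, 1 is not reported here. The other 8 are named, and of each other list at most the 3 called genes with the smallest deposited adjusted p in PABPC4, plus the 3 genes nearest in pattern. Gene positions come from RefSeq on GRCh38.p14.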

Additional observations from a re-analysis of the deposited data

How the results depend on the processing

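The count of called genes was 0 of 8 in PABPC1 and in PABPC4 against IgG under every alternative run (Fisher's exact test, both other scalings, each library left out: 0 to 0). In PABPC4 against PABPC1 it was 0 under TMM, without the filter and with limma trend, 1 on library totals (H1FX, 1.31), 1 with the RIP groups alone (H3F3A, -1.07) and 0 to 1 with a library left out, the call being H3F3A without IgG library B (-1.06). H2AFV changed direction on library totals (0.16). Log2 ratios that changed sign were, in PABPC1 on totals of nuclear-encoded genes, H1FX -0.22, H2AFV -0.31 and H2AFX -0.35, and under median-of-ratios -0.12, -0.21 and -0.24. In PABPC4 they were H2AFV -0.62, H2AFX -0.17, H2AFY -0.58, H3F3A -0.64 and H3F3B -0.76 on totals of nuclear-encoded genes, and -0.47, -0.022, -0.43, -0.49 and -0.61 under median-of-ratios. With a library left out, PABPC1 ratios ran from -0.35 to 1.00 for H1FX (-0.091 without IgG library B), -1.09 to 0.65 for H2AFZ, -0.76 to 0.71 for H2AFX (-0.13 without IgG library A) and -0.62 to 0.26 for H2AFY. H2AFZ had no ratio without PABPC1 library A or without IgG library A, because the library left had 0 reads. The differences between RIPs ran from -0.38 to 0.83 for H2AFX, -0.10 to 0.72 for H2AFJ, -0.064 to 0.22 for H3F3B and -0.049 to 0.49 for H2AFY. Without either PABPC4 library, H1FX, H2AFX and H2AFJ did not pass the filter on reads and were not fitted. Those runs covered H2AFV, H2AFY, H3F3A and H3F3B only. The causes were not tested. Over all genes the split of calls followed the scaling: 235 higher and 34 lower in the deposited PABPC1 table became 27 and 75 on totals of nuclear-encoded genes and 36 and 51 under median-of-ratios, and 1188 and 193 in PABPC4 became 111 and 397, and 164 and 353. Leaving out IgG library A, the chi-square test called 49 higher and 25 lower in PABPC1 and 369 and 133 in PABPC4, and without IgG library B 89 and 16 in PABPC1 and 646 and 114 in PABPC4. Beside the 235 and 34 in PABPC1, leaving out PABPC1 library B gave fewer calls in each direction. Leaving out PABPC1 library A gave more higher calls and fewer lower calls. Between the RIPs limma called 1113 higher and 54 lower on library totals, 180 and 1581 without the filter, 5 and 8 with limma trend, and 223 and 341 with the RIP groups alone, against 175 and 182. It called 7 and 12 without PABPC1 library A, 1 and 12 without PABPC1 library B, 257 and 183 without PABPC4 library A, and 372 and 271 without PABPC4 library B. Without IgG library A or B it called 209 and 271, or 211 and 288. No paired analysis was possible because the recovered libraries carry no replicate number. The 227265 IgG reads limit both comparisons with IgG.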
